A study of Homo sapiens with 11 samples.

Results

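HCC827 is a human lung adenocarcinoma cell line with an activating EGFR deletion, and the study lists it among the lines that do not express TRIM58 themselves. The comparison covered 4 of the 11 arrays of the series, 2 HCC827 mock arrays and 2 HCC827 TRIM58-WT arrays, chosen by their titles. Both groups had been infected with a retrovirus and selected with G418. Mock cells carried the empty pMXs-Neo vector, and TRIM58-WT cells carried the same vector with FLAG-tagged wild-type TRIM58. The study's legends describe the HCC827 transfectants as crude, so a group stands for a drug-selected population and not for a single clone. Total RNA was labelled with Cy3 and hybridised to Agilent human expression arrays in 1 colour. The labels name control cell 1 and 2 and TRIM58 expressing cell 1 and 2, and do not say that these were infected separately, so p-values measure the spread between these arrays, which may be technical.

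TRIM58 is a TRIM family protein with a RING domain, the part that gives an E3 ubiquitin ligase its activity. It is best known from maturing red cells, where it promotes the degradation of dynein, the motor that walks along microtubules. In lung adenocarcinoma its promoter is often methylated, and the study returned the gene to silenced lines to ask what it changes. The question taken here is which functions the genes that changed in HCC827 belong to.

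Levels are given as log2 of the processed signal relative to the 75th percentile of the same array, so that 0 is the signal of the probe at that percentile. The lowest level that counted as well above background lay between -3.49 and -3.23 on the 4 arrays. On each array 45.6% to 46.5% of 42405 probes rose well above background, and no spot was saturated. Over the tested probes the mock arrays correlated at r = 0.986 and the TRIM58-WT arrays at r = 0.973, and arrays of different groups at r = 0.961 to 0.971. All 4 arrays lay on 1 slide. Some spots were low in patches. On TRIM58-WT array 2, 59 probes were over 16-fold lower than on array 1, and 42 of these lay within 5 rows and columns of another such spot. Such low probes numbered 29 on TRIM58-WT array 1, 17 on mock array 1 and 2 on mock array 2. None of these low probes was called, but so wide a gap within a group all but excludes a call. Of the 173 called probes 34 (19.7%) lay within 5 rows and columns of such a spot, against 14.4% of all tested probes.

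The TRIM58 probe did not separate the groups. Its levels were -5.15 and -5.25 on the mock arrays and -5.64 and -5.38 on the arrays labelled TRIM58-WT, and it was not well above background on any of them. Where on the transcript this probe lies, inside the cloned coding sequence or outside it, is not given in the sources used here, so the probe does not check the labels. Directions below are those between arrays labelled TRIM58-WT and mock.

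The HCC827 arrays carried the markers of an epithelial lung adenocarcinoma. EPCAM, an adhesion protein of epithelia, lay at 6.19 and 6.38 in mock and at 6.19 and 6.4 in TRIM58-WT, and KRT7, a keratin of glandular epithelium, lay between 9.06 and 9.48 on all arrays. Of the 10 epithelial markers 9 were well above background on both arrays of a group, and SFTPB, a surfactant protein, on 1 array of each. The squamous markers KRT5, KRT14 and TP63, the neuroendocrine markers CHGA, SYP and INSM1 and the endothelial markers PECAM1, VWF and CDH5 stayed at background on all arrays. PTPRC, the general leukocyte marker, was dim at -3.02 to -2.44 and above background on both mock arrays and 1 TRIM58-WT array. The erythroid markers HBB and ALAS2 stayed at background. No marker was called. The summed leukocyte markers lay at -1.80 and -2.01 in mock and at -2.08 and -1.94 in TRIM58-WT, so the groups overlapped.

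A probe was called when its adjusted p in limma was under 0.05 and its change at least 2-fold. Of 19542 probes tested, 173 were called (0.885%), 57 higher in TRIM58-WT (0.292%) and 116 lower (0.594%). The adjusted p-values lay between 0.0243 and 0.0498, close to the threshold. All 173 had mock and TRIM58-WT arrays that did not overlap, as had 56.7% of all tested probes. Lower probes made up 67.1% of the calls, and 53.8% of the 650 calls made when arrays were aligned on their median. The median change over all tested probes was 0.01 (log2). Called probes with a symbol named 142 genes, 43 higher and 99 lower, and none went both ways. A further 5 called probes are not described. In bulk RNA, fewer cells that express a gene and less of its RNA per cell cannot be told apart.

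**Figure D1:**
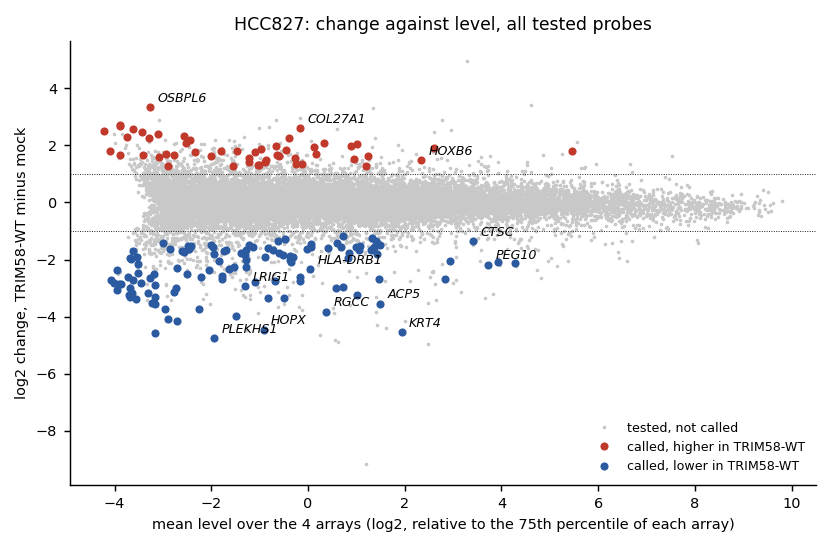
Change in HCC827 (log2, TRIM58-WT minus mock, n = 2 arrays each) against the mean level over the 4 arrays for the tested probes, each point 1 probe, with called probes in red (higher) and blue (lower) and dotted lines at 2-fold. The called decreases reach -4.76 on the log2 scale and most called probes lie below a level of 2; probes that are not described are left out.

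The largest called decreases measured on both sides came from genes with very different jobs. KRT4, a keratin of non-cornified squamous epithelium, lay at 4.28 and 4.14 in mock and at -0.74 and 0.06 in TRIM58-WT, and fell by 4.55 ± 0.30 on the log2 scale (SE, adjusted p = 0.0296), a 23.5-fold difference. RGCC, a regulator of cell cycle kinases that responds to complement, lay at 2.27 and 2.30 in mock and at -1.44 and -1.63 in TRIM58-WT, 14.1-fold lower. ACP5, the tartrate-resistant acid phosphatase of lysosomes, stood at 3.40 and 3.15 against -0.37 and -0.20, 11.7-fold lower. In each of these genes every TRIM58-WT array lay far below both mock arrays, as the choice of the largest called decreases entails.

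Other large decreases ended at background, so that only an approximate lower bound can be given. HOPX, an atypical homeodomain protein known from alveolar type I cells, lay at 1.24 and 1.39 in mock and at -3.20 and -3.09 in TRIM58-WT. That is 22.0-fold lower by the measured values. In TRIM58-WT these lay above each array's lowest level well above background, yet did not count as such. SLC16A9, a carnitine and monocarboxylate transporter, was at least 14.3-fold lower, with 0.57 and 0.42 in mock against -3.75 and -3.19. PLEKHS1, named for its pleckstrin homology domain, had the largest fitted decrease among called genes, 4.76 ± 0.26 (log2), and was at least 14.1-fold lower. Its second probe had a fitted change of -4.47 but was not called (adjusted p = 0.0887).

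The same held for ZNF502, a zinc finger protein (at least 7.95-fold lower), LMO3, a LIM-only transcription cofactor (at least 6.63-fold), and SPINK2, an inhibitor of serine proteases (at least 5.75-fold). FGL1, a secreted fibrinogen-like protein, was at least 5.61-fold lower, KISS1R, the kisspeptin receptor, at least 4.90-fold, and AMOT, a scaffold that binds YAP, at least 3.96-fold. All 6 were well above background on both mock arrays and on neither TRIM58-WT array. They are given in the order of their bounds, since values at background have no order.

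Most of the 12 largest increases among called genes started from background. OSBPL6, an oxysterol-binding protein that carries lipids, lay at -4.87 and -5.0 in mock and at -1.47 and -1.72 in TRIM58-WT, at least 3.12-fold higher. The bound was 3.54-fold for COPZ2, a coatomer subunit, 2.05-fold for SMARCA2, the BRM ATPase of SWI/SNF complexes, and 1.87-fold for TFCP2L1, a pluripotency and epithelial transcription factor. For PAX6, the transcription factor of eye and brain, it was only 1.20-fold. The remaining bounds were 1.62-fold for the non-coding RNA PSORS1C3, 1.60-fold for DRC11, a subunit of the ciliary dynein regulator, 2.52-fold for TMEM200B, a membrane protein, 1.55-fold for the antisense RNA ZBED3-AS1 and 2.10-fold for ERLIN2. ERLIN2, an endoplasmic reticulum scaffold, had other probes with changes of 0.00 and 0.67 (log2) that were not called.

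Of the 12 increases, 2 were measured on both sides. COL27A1, a fibrillar collagen of cartilage, lay at -1.43 and -1.5 in mock and at 1.18 and 1.09 in TRIM58-WT, and rose by 2.60 ± 0.13 on the log2 scale (SE, adjusted p = 0.0243). Its other probe changed by 0.66 and was not called (adjusted p = 0.169). MVB12B, a subunit of the ESCRT machinery that sorts membrane cargo, stood at -1.35 and -1.71 against 0.66 and 0.82, 4.81-fold higher. Of the 57 higher probes 37 were well above background on all 4 arrays, and of the 116 lower ones 68.

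**Figure D2:**
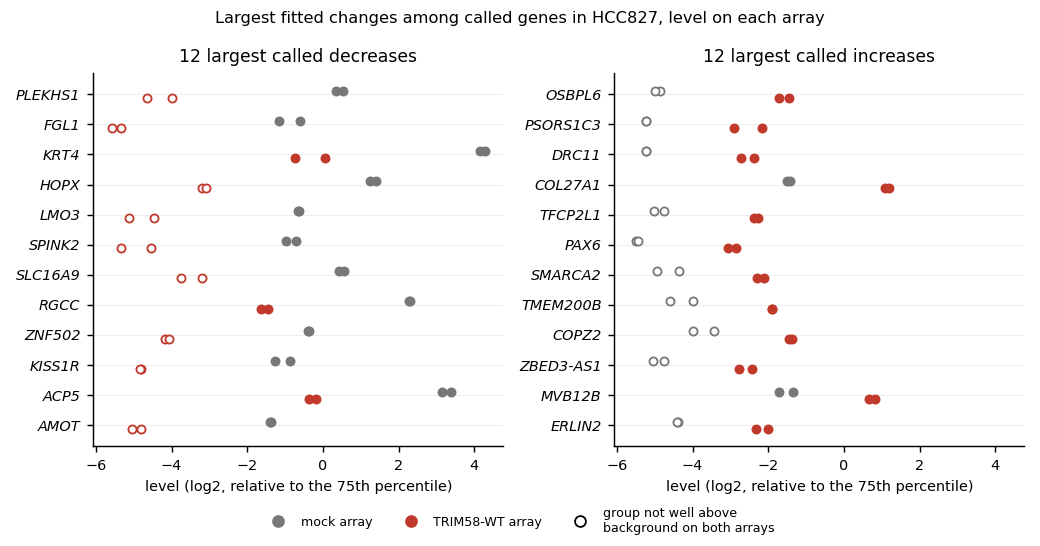
Level on each HCC827 array (log2, relative to the 75th percentile of the array) of the 12 called genes with the largest fitted decreases and the 12 with the largest fitted increases; grey points are mock and red points TRIM58-WT arrays, open where the group was not well above background on both arrays. Among the decreases only KRT4, RGCC and ACP5 are filled on both sides, and among the increases only COL27A1 and MVB12B.

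By the function each gene is best known for, 107 of the 142 genes were placed in 11 classes; the placing was done by hand after the calls were seen and is a description only. The largest class held 20 transcription factors and chromatin regulators, of which 14 were lower and 6 higher. The 8 transporters and channels and the 6 adhesion, tetraspanin and antigen-presenting surface proteins were all lower. Cell surface receptors were lower in 8 of 10 cases, metabolic enzymes in 10 of 13, regulators of GTPases and kinases in 8 of 12, and proteins of the cytoskeleton and membrane traffic in 8 of 10. Matrix proteins, proteases and protease inhibitors were split, 5 higher and 6 lower, and of 5 non-coding RNAs 4 were higher. Over all 142 genes 99 were lower.

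Lists of genes drawn up by function were counted next, with 1 probe per gene, the brightest. In this count 40 of 12188 genes were called higher (0.328%) and 93 lower (0.763%). A wider count took the genes whose groups lay apart by at least 2-fold without overlap, called or not, and held 298 higher (2.45%) and 389 lower genes (3.19%). Genes that are dim in one group enter only through the other, so these counts describe the lists and test nothing.

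**Figure D3:**
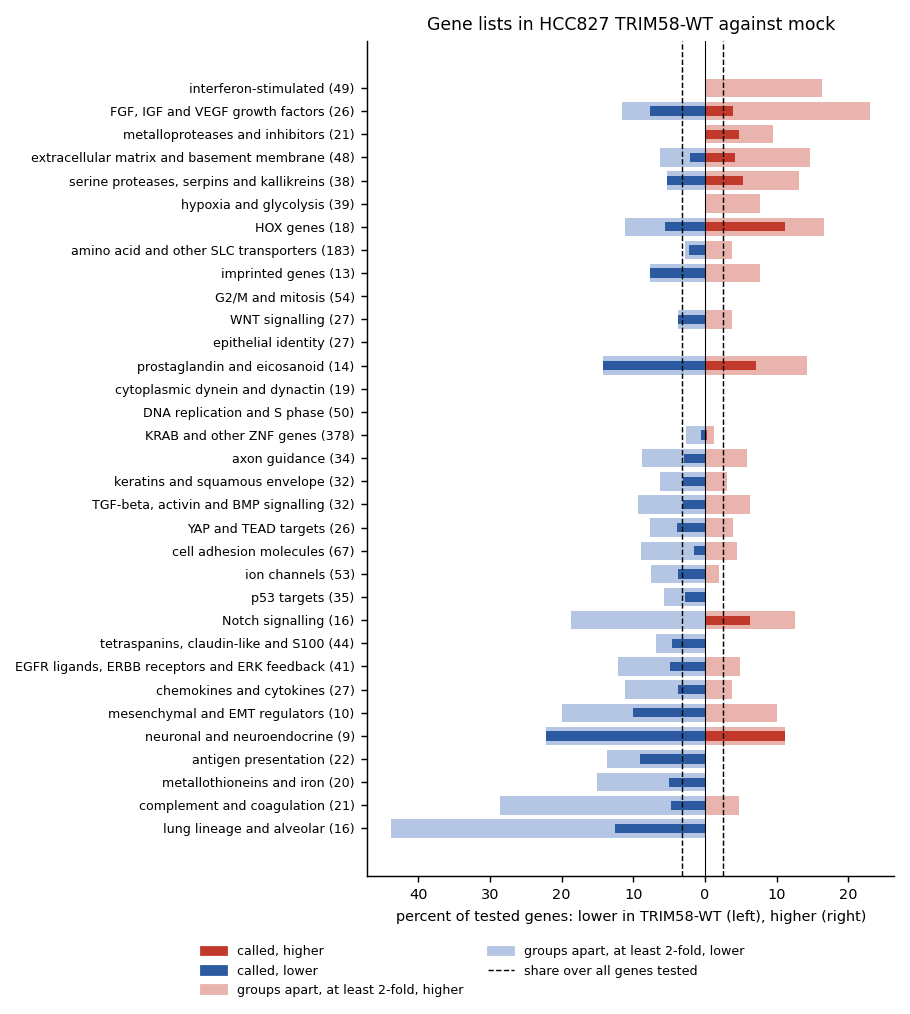
Share of the tested genes of each list that were called (dark bars) or whose groups lay apart by at least 2-fold without overlap (light bars), lower in TRIM58-WT to the left and higher to the right, in percent, with the number of tested genes in brackets and the shares over all 12188 genes as dashed lines. The list of lung lineage and alveolar genes reaches furthest to the left, with 7 of 16 genes; the 33 lists shown are lists with a called gene and 6 without.

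Every called gene of the lung lineage was lower. NKX2-1 is the master transcription factor of the lung epithelium, and with FOXA1 it drives surfactant genes and NAPSA, the aspartic protease that pathologists use to recognise lung adenocarcinoma. Of 16 tested genes of this list 2 were called, both lower, and 7 were lower by at least 2-fold without overlap, none higher. Over all genes 1.09% were called and 3.19% were lower by that measure. The median change of the list was -0.49 (log2), against 0.01 over all genes. Besides HOPX, the called gene was AQP3, the water and glycerol channel of airway basal cells, which lay at 1.23 and 1.03 in mock and at -1.72 and -1.23 in TRIM58-WT, 6.07-fold lower. A second AQP3 probe changed by -3.27 and was not called (adjusted p = 0.101).

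The other 5 did not pass the test, and they and the relatives given beside them were picked out after their values were seen. NKX2-1 lay at 4.85 and 4.59 in mock and at 3.62 and 3.68 in TRIM58-WT (adjusted p = 0.0733). FOXA1 lay at 3.07 and 2.96 against 1.53 and 1.74 (adjusted p = 0.0506). NAPSA stood at 5.33 and 5.13 against 3.64 and 4.21, and SFTPA2, a surfactant protein, at 1.02 and 0.78 against -1.76 and -0.59. AQP5, the water channel of alveolar type I cells, was at -1.48 and -1.74 against -3.69 and -2.57. That both TRIM58-WT arrays lay below both mock arrays in all 5 follows from the rule of the wider count and tests nothing. FOXA2, a relative of FOXA1, went the other way, with -0.91 and -1.02 for mock and -0.06 and -0.08 for TRIM58-WT (adjusted p = 0.0740).

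None of the 27 tested genes of the epithelial list was called and none lay apart by 2-fold, and their changes ran from -0.46 for CLDN3, a tight junction protein, to 0.77 for RAB25, a small GTPase of epithelial recycling. TWIST1, a transcription factor that drives the change from epithelial to mesenchymal form, was the only called gene of 10 in the mesenchymal list. It lay at -2.16 and -2.35 in mock and was not well above background in TRIM58-WT, at least 2.17-fold lower. VIM, the mesenchymal intermediate filament, lay at 0.82 and 1.28 against 2.76 and 2.20 (adjusted p = 0.104), the opposite direction to TWIST1. CDH2, N-cadherin, went the same way as TWIST1, at -2.53 and -2.26 against -3.62 and -3.87 (adjusted p = 0.0663). The wider count held these 3 genes of the list, 1 higher and 2 lower.

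Class II genes of the major histocompatibility complex, which present peptides to helper T cells, supplied both called genes of antigen presentation, and no class I gene was called. HLA-DRB1, a beta chain of HLA-DR, lay at 1.24 and 1.20 in mock and at -1.23 and -1.03 in TRIM58-WT, 5.09-fold lower (adjusted p = 0.0288). HLA-DRB5, a second DR beta chain, lay at 0.70 on both mock arrays and at -2.22 and -1.89 in TRIM58-WT, 6.77-fold lower (adjusted p = 0.0288). DR beta genes are near-identical, so how much each probe reads the other gene cannot be told from these files. HLA-DMB and HLA-DMA, which load peptides onto class II, changed by -2.34 (adjusted p = 0.0572) and -0.70 (adjusted p = 0.246). The class I chains HLA-B and HLA-C changed by 0.37 and -0.11, and their partner B2M by -0.48, none called. Over the list of 22 antigen presentation genes, 2 were called, both lower (9.09%, against 1.09% over all genes).

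Class II promoters share a Y box, an inverted CCAAT sequence bound by NF-Y, and the promoters of the 4 class II genes are shown because both called genes of the antigen presentation list are class II genes; HLA-DMB and HLA-DMA were added after their values were seen. They are RefSeq stretches of build GRCh38.p14, from 250 bases before to 50 bases after the annotated start, and capitals mark GATTGG or its reverse complement.
HLA-DRB1 (chr6:32589799-32590098, minus strand): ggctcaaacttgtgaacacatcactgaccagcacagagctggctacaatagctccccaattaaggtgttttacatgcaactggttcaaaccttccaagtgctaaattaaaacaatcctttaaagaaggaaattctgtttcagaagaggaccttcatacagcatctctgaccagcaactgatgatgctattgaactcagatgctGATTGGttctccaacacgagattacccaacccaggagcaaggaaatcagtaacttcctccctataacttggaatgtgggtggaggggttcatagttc
HLA-DRB5 (chr6:32530238-32530537, minus strand): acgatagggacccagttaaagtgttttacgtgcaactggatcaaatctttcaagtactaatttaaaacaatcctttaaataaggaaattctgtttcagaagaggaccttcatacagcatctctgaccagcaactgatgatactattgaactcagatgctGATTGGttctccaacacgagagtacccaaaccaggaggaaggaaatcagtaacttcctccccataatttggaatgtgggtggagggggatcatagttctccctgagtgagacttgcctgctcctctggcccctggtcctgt
HLA-DMB (chr6:32940979-32941278, minus strand): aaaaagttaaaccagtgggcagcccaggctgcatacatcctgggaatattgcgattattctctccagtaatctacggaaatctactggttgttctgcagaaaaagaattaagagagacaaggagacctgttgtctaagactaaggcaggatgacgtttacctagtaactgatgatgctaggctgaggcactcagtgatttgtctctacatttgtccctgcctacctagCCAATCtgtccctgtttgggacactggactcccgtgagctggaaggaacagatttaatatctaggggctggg
HLA-DMA (chr6:32953048-32953347, minus strand): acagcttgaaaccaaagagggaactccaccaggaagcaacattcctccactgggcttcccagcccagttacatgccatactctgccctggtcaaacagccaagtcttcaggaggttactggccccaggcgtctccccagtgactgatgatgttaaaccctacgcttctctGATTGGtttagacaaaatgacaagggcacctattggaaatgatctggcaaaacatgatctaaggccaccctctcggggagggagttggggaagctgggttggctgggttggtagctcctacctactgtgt
Each of the 4 held 1 match, on the forward strand in HLA-DRB1, HLA-DRB5 and HLA-DMA and on the reverse strand in HLA-DMB. The HLA-DMB match began at -22 from the annotated start, and those of HLA-DRB1, HLA-DRB5 and HLA-DMA at -47, -91 and -80. GATTGG, searched on both strands, occurred in 15.1% of 34943 promoters of the same length. The longer CTGATTGG occurred in 3.97% of them, and once each in HLA-DRB1, HLA-DRB5 and HLA-DMA but not in HLA-DMB. The match is a description of letters and was not set against any binding data.

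Growth factor genes changed in both directions. In the list of FGF, IGF and VEGF genes 3 of 26 tested were called. FGF2, the basic fibroblast growth factor, lay at -3.71 and -3.44 in mock and at -1.36 and -1.61 in TRIM58-WT, at least 3.36-fold higher. FGF9, a growth factor of lung mesothelium and epithelium, lay at 0.72 and 0.52 in mock and at -1.59 and -1.16 in TRIM58-WT, 4-fold lower, and its second probe was called too (-1.53). IGF1, insulin-like growth factor 1, was at least 3.48-fold lower. The wider count held 6 higher and 3 lower genes of this list, against 2.45% higher and 3.19% lower over all genes.

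LRIG1 and ERBB4 were the called genes among 41 of the EGFR family and its feedback (4.88%, against 1.09% over all genes). LRIG1, a membrane protein that limits ERBB receptors, lay at 0.34 and 0.01 in mock and at -2.89 and -2.64 in TRIM58-WT, 7.70-fold lower. ERBB4 itself was at least 1.91-fold lower and dim in mock, at -2.24 and -2.63. EGFR, the driver of this line, lay at 4.31 and 4.22 in mock and at 4.81 and 4.85 in TRIM58-WT (adjusted p = 0.133). RNF43, a ubiquitin ligase that removes WNT receptors, was the only called gene of 27 in the WNT list, with 1.87 and 1.72 against -0.21 and -0.08, 3.84-fold lower. ID4, an inhibitor of basic helix-loop-helix factors, fell 3.19-fold, and DLL3, an inhibitory Notch ligand, rose 2.51-fold, the only calls in the lists of TGF-beta and BMP signalling and of Notch signalling.

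In prostaglandin synthesis 3 genes were called, and the cyclooxygenases went opposite ways. PLA2G4A, the cytosolic phospholipase that frees arachidonic acid, lay at 0.59 and 0.52 in mock and at -1.30 and -1.32 in TRIM58-WT, 3.65-fold lower (adjusted p = 0.0308). PTGS2, the inducible cyclooxygenase, lay at -1.70 and -2.16 in mock and was not well above background in TRIM58-WT, at least 2.71-fold lower (adjusted p = 0.0341). PTGS1, the constitutive cyclooxygenase, lay at -2.04 and -1.97 against -0.30 and -0.61, 2.92-fold higher (adjusted p = 0.0497). A second PTGS1 probe changed by 1.22 and was not called (adjusted p = 0.0573). The other 11 of the 14 tested genes of this list were not called. The called share was 21.4%, against 1.09% over all genes.

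Of the HOX genes, which give cells their position along the body axis, those called came from clusters B and D. HOXB5 lay at -1.78 and -2.17 in mock and at -0.19 and -0.25 in TRIM58-WT, 3.38-fold higher. HOXB6, its neighbour on chromosome 17, lay at 1.65 and 1.56 against 3.20 and 2.97, 2.79-fold higher. The other tested genes of cluster B, HOXB2, HOXB9 and HOXB13, changed by 0.93, 1.95 and 0.61 and were not called. HOXD1, the only tested gene of cluster D, was at least 2.54-fold lower. Over 18 tested HOX genes the median change was 0.34, and 3 were called, 2 higher and 1 lower (16.7%, against 1.09% over all genes).

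A pair of neighbouring genes on chromosome 16 was lower, as noticed after the values were seen. CRNDE, a long non-coding RNA raised in many tumours, was read by 4 probes, all called, with changes of -1.64 to -1.54. IRX5, the homeodomain gene next to it, lay at -1.14 and -1.32 in mock and was not well above background in TRIM58-WT, at least 4.41-fold lower.

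**Figure D4:**
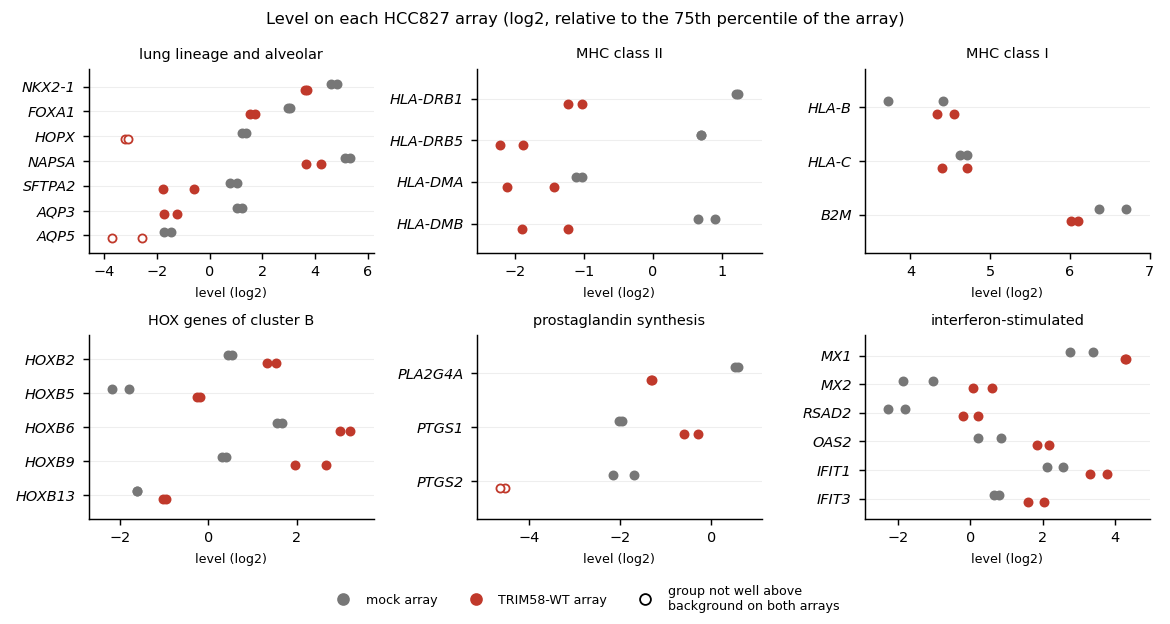
Level on each HCC827 array (log2, relative to the 75th percentile of the array) of genes of 6 groups, 1 probe per gene; grey points are mock and red points TRIM58-WT arrays, open where the group was not well above background on both arrays. The MHC class II genes and the lung genes shown lie lower in TRIM58-WT, the cluster B HOX genes and the interferon-stimulated genes shown lie higher, and the groups overlap for HLA-B and HLA-C. The lung genes shown were picked by direction, as the 7 of 16 tested that lay lower by at least 2-fold without overlap. The interferon-stimulated genes shown come from the 8 of 49 tested that lay higher by that measure. Over all genes 2.45% lay higher and 3.19% lower by it.

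Of 48 tested matrix and basement membrane genes 7 were higher and 3 lower by at least 2-fold without overlap, and the list's median change was 0.44. Over all genes 2.45% were higher and 3.19% lower by that measure, and 1.09% were called. The called ones were COL27A1, COL13A1, a transmembrane collagen (at least 3.68-fold higher), and VCAN, the proteoglycan versican, which lay at 1.30 and 1.13 in mock and at -0.41 and -0.39 in TRIM58-WT, 3.06-fold lower. ADAMTS9, a metalloprotease that cuts versican, rose from -1.64 and -1.57 to -0.09 and -0.29, 2.67-fold. KLK8, a kallikrein protease, was at least 2.28-fold lower. TFPI2, an inhibitor of tissue factor and matrix proteases, fell 2.82-fold, the only call among 21 complement and coagulation genes, of which 6 were lower and 1 higher in the wider count.

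SERPINB3 and SERPINB4, the squamous cell carcinoma antigens that inhibit cysteine and serine proteases, rose together. SERPINB3 lay at -1.87 and -1.91 in mock and at -0.07 and 0.00 in TRIM58-WT, 3.63-fold higher, and SERPINB4 at -2.32 and -2.44 against -0.68 and -0.46, 3.51-fold higher. They are near-identical copies on chromosome 18, and their probes may read both. Their promoters, shown to let a reader see how alike the copies are, were identical at 296 of 300 positions, and capitals mark the 4 that differ.
SERPINB3 (chr18:63661844-63662143, minus strand): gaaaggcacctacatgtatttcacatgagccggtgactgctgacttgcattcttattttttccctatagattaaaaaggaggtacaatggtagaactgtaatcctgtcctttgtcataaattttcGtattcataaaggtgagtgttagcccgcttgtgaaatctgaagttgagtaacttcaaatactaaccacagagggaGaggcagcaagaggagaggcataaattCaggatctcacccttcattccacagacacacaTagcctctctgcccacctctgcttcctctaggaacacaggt
SERPINB4 (chr18:63644207-63644506, minus strand): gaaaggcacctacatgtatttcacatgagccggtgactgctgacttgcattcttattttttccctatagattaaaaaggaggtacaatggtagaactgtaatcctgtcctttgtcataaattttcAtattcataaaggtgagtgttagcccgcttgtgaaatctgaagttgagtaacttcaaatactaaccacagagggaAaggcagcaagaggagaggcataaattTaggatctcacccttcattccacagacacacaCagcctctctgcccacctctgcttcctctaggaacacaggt

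The few called genes of the transporter and adhesion lists were lower, as were most called genes. Of 183 tested SLC transporters 4 were called (2.19%), all lower, while 7 were higher and 5 lower in the wider count, with a median change of 0.07. Of 67 adhesion molecules 1 was called (1.49%), lower, with 3 higher and 6 lower in the wider count. Over all genes 1.09% were called, 40 higher and 93 lower. SLC40A1, the iron exporter ferroportin, was at least 2.83-fold lower, SLC28A3, a nucleoside transporter, at least 3.13-fold, and SLC43A2, an amino acid transporter, 2.82-fold. KCNK2, a potassium channel, lay at 1.22 and 1.21 in mock and at -1.82 and -1.25 in TRIM58-WT, 6.72-fold lower. TSPAN8 and TSPAN12, membrane organisers of the tetraspanin family, fell 6.47-fold and 5.99-fold. ICAM2, an adhesion ligand of leukocyte integrins, was at least 5.52-fold lower. SEMA3A, a repulsive guidance cue, was 6.42-fold lower by the measured values, though not well above background in TRIM58-WT. Of 9 tested neuronal genes 3 were called, DLL3 higher and UCHL1 and MAP2 lower. UCHL1, a deubiquitinase abundant in neurons, stood at 1.43 and 0.94 in mock against -2.19 and -2.13, 10.2-fold lower, and MAP2, a microtubule protein of dendrites, was at least 2.51-fold lower.

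Single calls filled other lists. IL37, an anti-inflammatory cytokine, fell 5.05-fold, TNFRSF10C, a decoy receptor for TRAIL, 3.14-fold, and PEG10, an imprinted gene of retrotransposon origin and the brightest of these, 4.56-fold, from 5.01 and 4.62 to 2.72 and 2.53. DOCK11, a guanine nucleotide exchange factor, fell 4.78-fold, and the exchange factors ARHGEF25 and ARHGEF38 were at least 4.36-fold and 1.84-fold lower, while RHOF, a small GTPase of filopodia, rose 2.48-fold. The zinc finger gene ZNF641 was at least 1.72-fold lower and the pseudogene ZNF204P rose 2.51-fold, so with ZNF502 only 3 of 378 zinc finger genes were called, near the share over all genes. A second ZNF641 probe changed by -1.20 and was not called (adjusted p = 0.200).

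Cell cycle lists touch on the study's growth assays, which measured other things. The study saw p21, the CDKN1A protein, clearly only in cells with TRIM58-WT. In A549, and similarly in HCC827, it found more cells before S phase and fewer in S phase and G2/M. Those assays read protein and cell cycle phase, whereas the values here are RNA. None of 50 tested genes of DNA replication and none of 54 of G2/M and mitosis was called or lay apart by 2-fold, with median changes of 0.06 and -0.03. The sign of both medians turned under other scalings. Of 26 tested CDK inhibitors and G1 cyclins none was called and 1 was higher by at least 2-fold without overlap. Of 35 tested p53 targets 1 was called, the decoy receptor TNFRSF10C, and RGCC, which is lower, stands in none of these lists. MKI67, a marker of cycling cells, lay at 1.68 and 1.44 in mock and at 1.61 and 1.55 in TRIM58-WT. CDKN1A, the cyclin-dependent kinase inhibitor, had 1 probe, which stayed at background on all arrays. It lay at -5.22 and -4.67 for mock and -3.52 and -5.19 for TRIM58-WT, which does not show whether CDKN1A RNA changed. PARP1 changed by -0.11 ± 0.16 (log2, SE, adjusted p = 0.707) and GAPDH by -0.07 ± 0.13 (adjusted p = 0.779).

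Dynein genes did not pass the test either. DYNC1H1, the heavy chain of cytoplasmic dynein, lay at 5.45 and 5.41 in mock and at 5.95 and 5.90 in TRIM58-WT, a change of 0.49 ± 0.13 (adjusted p = 0.151). DYNC1I2, an intermediate chain, changed by -0.13 ± 0.14 (adjusted p = 0.60), and DYNC1I1, the neuronal one, stayed at background on all arrays. None of the 19 tested genes of dynein and dynactin was called or lay apart by 2-fold.

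Interferon-stimulated genes, which cells raise against viruses, had no call. Of 49 tested genes 8 lay higher by at least 2-fold without overlap and none lower, against 2.45% higher and 3.19% lower over all genes. RSAD2, the antiviral protein viperin, lay at -1.82 and -2.27 in mock and at -0.20 and 0.21 in TRIM58-WT (adjusted p = 0.0573), and MX1, an antiviral GTPase, at 3.38 and 2.74 against 4.28 and 4.30 (adjusted p = 0.111). The list's median change was 0.37.

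The same vectors had been used in A549, another lung adenocarcinoma line, with 3 mock replicates on 4 arrays and 3 TRIM58-WT replicates. The study's legends name clones for A549, whereas the HCC827 transfectants were crude. There 1171 of 16920 probes were called (6.92%). A549 mock array 3 held TRIM58 at -0.71, well above background, and no A549 array labelled TRIM58-WT did, so directions in A549 are likewise those of the labels. Of the 173 probes called in HCC827, 76 were tested in A549, 12 were called there in the same direction and 11 in the opposite one. The difference between the lines' changes was called for 794 of 20617 probes (3.85%), and for 85 of the 173. The 173 were chosen for a large change in HCC827, which enters this difference.

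Genes lower in both lines included FGL1, AQP3, TFPI2, PLA2G4A, ID4 and DOCK11. AQP3 changed by -6.06 in A549 (adjusted p = 0.0143), where 1 of 3 TRIM58-WT arrays was well above background, and PLA2G4A by -2.84 (adjusted p = 0.0195). FGF2 and COPZ2 were higher in both, by 1.89 (adjusted p = 0.0374, with 1 of 4 mock arrays above background) and 1.73 (adjusted p = 0.00335) in A549.

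Other genes moved in opposite directions. CTSC, a lysosomal protease that activates granule proteases, lay at 4.07 and 4.10 in HCC827 mock and at 2.81 and 2.64 in TRIM58-WT, and in A549 it rose by 1.76 (adjusted p = 0.00402); the difference was -3.13 (adjusted p = 0.000649). Only 1 of its 3 probes was called in HCC827, and the others changed by -0.47 and -0.69. PTGS1, higher in HCC827, was at least 1.28-fold lower in A549, a difference of 4.13 (adjusted p = 0.000101). TFCP2L1 was at least 1.98-fold lower in A549, a difference of 5.11 (adjusted p = 0.000374), and ARHGEF25 at least 3.54-fold higher, a difference of -4.37 (adjusted p = 0.000321). PLEKHS1 was at background on all A549 arrays, so its difference of -4.77 (adjusted p = 0.000469) is the HCC827 change alone.

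**Figure D5:**
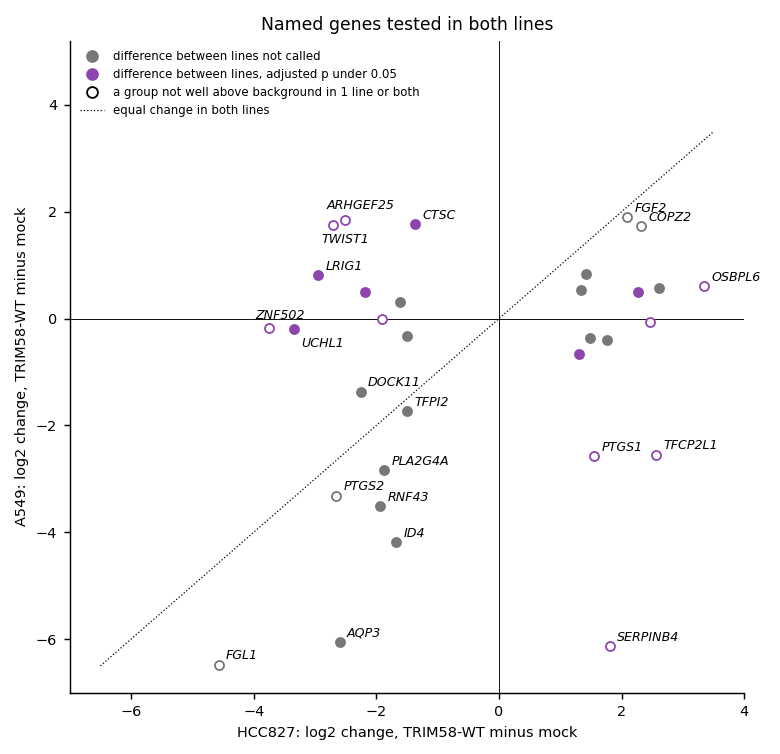
Fitted change in A549 against that in HCC827 (log2, TRIM58-WT minus mock) for the 32 named genes tested in both lines; purple points differ between the lines at an adjusted p under 0.05, open points have a group not well above background, and the dotted line marks equal change. CTSC, ARHGEF25 and TWIST1 lie lower in HCC827 and higher in A549, and PTGS1, TFCP2L1 and SERPINB4 the other way round.

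The number of calls moved when 1 array was left out. Such a fit sets 1 array against 2, so the spread comes from the other group alone, with 1 residual degree of freedom, and the lone array is assumed to vary like that group. Without mock array 1 limma called 0 probes (2576 at an unadjusted p under 0.05), without mock array 2 it called 1, without TRIM58-WT array 1 it called 166 and without TRIM58-WT array 2 it called 826. Leaving out the 2806 probes near a locally low spot, an alternative chosen after seeing the data, gave 324 calls, 145 higher and 179 lower. Among the genes described, COPZ2, COL13A1, PLA2G4A, PEG10, IGF1, HLA-DRB1, AQP3, PTGS2, TWIST1, LRIG1, HOXD1, SLC16A9 and PLEKHS1 have such a probe.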

How the data were processed

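Total RNA of 11 samples was hybridised to Agilent 1-colour arrays (design 028004). The authors scanned them, and the deposited per-array files hold spot intensity values processed by Feature Extraction, 11.5.1.1 per the file headers and 10.7 per the submitters' processing notes. A series table deposited by the authors holds their log2 values and served only as an alternative. The study's methods name GeneSpring for analysis.

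For each array log2 of the processed signal was taken and the 75th percentile over non-control probes subtracted. Spots marked as outliers were left out and spots of 1 probe averaged. Probes well above background on both arrays of at least 1 group (19563 of 42405) were kept, and 21 with a missing value dropped. Groups follow the sample titles. TRIM58-WT and mock were compared with lmFit and eBayes of limma 3.58.1 in R 4.3.3, with Benjamini-Hochberg adjustment over the 19542 tested probes, and calls needed an adjusted p under 0.05 and a 2-fold change. The difference between lines was an interaction term over both lines, with A549 mock arrays 1-1 and 1-2 averaged. Probe symbols came from RefSeq through the array's accessions, which named 27241 probes (64.2%). Where no array of a group was well above background, values below an array's lowest signal well above background were raised to it. The fold is then an approximate lower bound. A probe can lie above that signal and still not count as well above background, as HOPX and SEMA3A did in TRIM58-WT. For these the fold is that of the measured values. The scripts were tested on simulated data.

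Named genes were TRIM58, the genes the study followed, the 12 largest called increases and decreases, up to 4 called genes of each of the gene lists and the 5 called genes with the smallest p for the difference between lines. Members and lists were chosen with earlier results of these data known. Alternatives were quantile and median scaling, normexp background correction, other filters, the methods' t-test, a block for the replicate number, the deposited log2 values, outlier spots kept and each array left out. Some genes are not reported here.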

Additional observations from a re-analysis of the deposited data

Results flagged for a closer look

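For 39 of the 69 named genes the change in HCC827 differed from the change under the same labels in A549, by limma's interaction term at an adjusted p under 0.05. Values are the HCC827 change minus the A549 change (log2). Since the genes were named for a large HCC827 change, this difference is not independent of the choice.

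Of the 39 genes 15 were tested in both lines. The difference was positive for OSBPL6 2.74, TFCP2L1 5.11, SMARCA2 2.51, MVB12B 1.78, SERPINB4 7.95, PTGS1 4.13 and RHOF 1.97. It was negative for CTSC -3.13, ZNF641 -1.89, PEG10 -2.68, ARHGEF25 -4.37, TWIST1 -4.47, LRIG1 -3.75, UCHL1 -3.15 and ZNF502 -3.56. HCC827 and A549 are separate lines whose arrays lay on different slides, so line and slide cannot be told apart. The study's legends also name clones for A549 and crude transfectants for HCC827, which cannot be told apart from line either.

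The other 24 genes were not tested in A549, where no group was well above background on all its arrays. Among these the difference was positive for TMEM200B 2.09, ZBED3-AS1 2.03, ERLIN2 2.55 and COL13A1 2.02. It was negative for TNFRSF10C -1.88, FGF9 -2.25, IL37 -3.07, HLA-DRB1 -2.49, ICAM2 -2.68, SEMA3A -4.02, KCNK2 -3.01, HLA-DRB5 -3.08, ERBB4 -3.12, ARHGEF38 -3.06, SLC28A3 -4.29, HOXD1 -3.54, AMOT -3.67, KISS1R -4.01, SLC16A9 -4.03, SPINK2 -4.33, LMO3 -4.99, HOPX -5.08, KRT4 -3.87 and PLEKHS1 -4.77. For genes at background in A549 the difference is that of the HCC827 change from noise.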

How the results depend on the processing

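Every alternative kept the direction of the called probes it tested, but not their calls. All read the same HCC827 arrays, and the groups of a called probe lay at least 1.17 (log2) apart. A kept direction was therefore near certain beforehand and is no test. The median shift called 650 probes (300 higher, 350 lower), normexp 102 (31 and 71), a filter on all 4 arrays 367 (179 and 188), the deposited log2 values 133 (36 and 97), and leaving out probes near locally low spots, chosen after seeing the data, 324 (145 and 179). Under normexp 63 of the 173 probes stayed 2-fold apart. Quantile normalization called 213, keeping 167 of the 173, both lines in one fit 159, keeping 87, and outlier spots kept 164. Without any filter limma called 0 (0 higher, 0 lower; 4371 at an unadjusted p under 0.05), and the methods' t-test called 0 after Benjamini-Hochberg, with 1500 at an unadjusted p under 0.05, 343 of these at least 2-fold.

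Leaving out 1 array gave 0 to 826 calls, 0 to 137 higher and 0 to 689 lower. Replicate numbers did not pair the arrays (correlation of same-numbered deviations 0.08), and the fit with the replicate block called 0 (3840 at an unadjusted p under 0.05). The difference of the HCC827 change from the A549 change was called for 526 probes under the median shift, 877 under quantile normalization, 744 and 761 with A549 mock array 1-1 or 1-2 alone, and 208 to 403 without 1 HCC827 array. Named genes were also counted by direction and an adjusted p under 0.05 alone, whatever the size of the change. Of the 69 named genes, 69 kept both under the median shift, 67 under quantile normalization, 52 in the deposited table and 30 under normexp. With 2 arrays a group, precision is limited by their number, and changes that end at background are approximate lower bounds. The cause of these differences was not tested.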

Other observations

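Some probes that were not called had large fitted changes or differed widely between arrays of 1 group; these were chosen after their values were seen, and why they differ was not tested. LDHB, a subunit of lactate dehydrogenase, had a probe at 5.71 and 5.84 in mock and at -1.67 and -5.13 in TRIM58-WT, while its brighter probe lay at 8.37 and 8.68 against 8.17 and 8.21. KNSTRN, a kinetochore protein, lay at 4.89 and 5.05 in mock and at 5.2 and -5.19 in TRIM58-WT. NDUFA6, a subunit of respiratory complex I, lay at 3.39 and 4.25 against -4.37 and 3.22. None of these probes was called.

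SOX2, a stem cell factor of the airway, lay at 4.5 and 4.33 in mock and at 1.03 and 2.12 in TRIM58-WT. It was not called (adjusted p = 0.0687) and was picked out after its values were seen. In A549 it changed the other way, by 4.04 (adjusted p = 0.0164), and the difference between the lines was -6.88 (adjusted p = 0.0082).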
